A study of Mus musculus with 30 samples.

Results

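RNA of Cd11b+ myeloid cells sorted from the brains of PS2APP transgenic mice was compared with that of Cd11b+ cells sorted from non-transgenic (non-Tg) mice, all 11.5 months old. The comparison used 10 of the 30 sorted-cell libraries of the study, 5 labelled PS2APP CD11b and 5 labelled non-Tg CD11b. The remaining libraries hold Gfap+ astrocytes and NeuN+ neurons. PS2APP mice carry human transgenes for mutant presenilin 2 and mutant amyloid precursor protein and form amyloid plaques. As background not in the labels, the amyloid precursor protein transgene is driven by elements of the Thy1 promoter and the presenilin transgene by the prion protein promoter, and both are active chiefly in neurons. Nothing in the labels ties a library to an animal, and each p-value therefore reflects only how much the libraries vary, which may be technical. All genes were described, with weight on those outside the known disease-associated microglia list.

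Cd11b, the product of Itgam, is an integrin chain that pairs with Itgb2 to form complement receptor 3 on microglia, macrophages, monocytes and neutrophils. Microglia, the resident macrophages of the brain, survey the tissue with motile processes, take up debris and dying cells, and depend on the receptor Csf1r for survival. Around amyloid plaques they are known to lower the genes of the surveying state, such as P2ry12 and Cx3cr1, and to raise a plaque-associated set that includes Apoe, Cst7, Itgax and Gpnmb. The questions taken up here were which other genes rose or fell, which pathways they belong to, and which lineages the sort contained.

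PS2APP libraries held 2015535 to 2908222 uniquely aligned reads in genes and non-Tg libraries 3578249 to 6143018, a difference in means that passed a two-sided exact permutation test (p = 0.0079, the smallest that 5 against 5 allows; adjusted p = 0.016 over 2 tests). Mitochondrial genes took 9.46 to 16.7% of counts in PS2APP libraries and 5.46 to 12.7% in non-Tg libraries (exact permutation p = 0.056, two-sided, the same after adjustment over 2 tests). Ribosomal RNA genes with a symbol, those of the mitochondrion among them, took 1.597 to 2.77% in PS2APP and 0.402 to 1.08% in non-Tg libraries. That share leaves out an abundant gene without a symbol, which was treated as ribosomal RNA in an alternative fit. It took 3.51 to 9.25% of counts in PS2APP and 1.61 to 3.25% in non-Tg libraries, without overlap. On the first principal component, which took 26.8% of the variance, PS2APP replicate 4 stood at 97.2 and the other 9 libraries between -34.1 and 14.3, so a list's count is also given without that library where it moved by over 1.5 times.

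Itgam and Csf1r, markers of the sorted cells, were abundant in all 10 libraries. Itgam stood at 1139.5, 1094, 1099, 918 and 1221 CPM in PS2APP libraries, against 1419, 1758, 1399, 1352 and 1320.3 CPM in non-Tg libraries. PS2APP libraries were lower without overlap, but the change of -0.41 ± 0.14 on the log2 scale (edgeR adjusted p = 0.1) did not pass the test. Csf1r stood at 1744 to 2172 CPM in PS2APP libraries, against 2049.6 to 2371 CPM in non-Tg libraries, with a change of -0.17 ± 0.13 on the log2 scale (edgeR adjusted p = 0.49). Cst7, a cysteine protease inhibitor, stood at 57.9, 110.4, 69.9, 96.1 and 85.5 CPM in PS2APP libraries, against 1.97, 0.164, 1.95, 3.42 and 3.92 CPM in non-Tg libraries, a change of 5.17 ± 0.40 on the log2 scale (edgeR adjusted p = 6.3e-08). Gpnmb, a transmembrane glycoprotein of phagocytes, was at 20.4, 16.4, 28.9, 21.01 and 19.1 CPM in PS2APP libraries, against 0, 0.328, 0, 0.427 and 0 CPM in non-Tg libraries. Since 3 counts correspond to 0.488 to 1.49 CPM in these libraries, no fold is given for it (adjusted p = 9.2e-07 in edgeR). Cst7 and Gpnmb were thus far higher in all 5 PS2APP libraries than in any non-Tg library.

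Of 12274 genes tested, 412 (3.36%) passed an adjusted p of 0.05 in edgeR's quasi-likelihood fit. Of these, 228 rose in PS2APP libraries (1.86%) and 184 fell (1.5%). Levels are CPM, reads of a gene scaled to library size with TMM factors, and changes are log2 of PS2APP over non-Tg, given ± the standard error (SE) of the fit. Of the genes called, 99 rose and 70 fell at least 2-fold, and the libraries of the 2 groups did not overlap for 264 of them, against 4.8% of all genes tested. Of 43 function lists 9 had no gene called, and 312 of the 412 genes belonged to no list. Lists are described by their counts of called genes and by their median log2 fold change, which over all genes tested was -0.0021. Each count is to be set against the 3.36% called over all genes, and 1 or 2 calls are not read as a result about a list.

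Base composition differed between the genes called higher and those called lower. Genes called higher had a median GC content of 54.6% over their longest transcript and genes called lower 43.3%, against 49.8% for all genes. The 10% of genes lowest in GC had a median log2 fold change of -0.28, against 0.29 in the 10% highest. The trend was uneven within the groups. A library's deviation from the mean of each gene correlated with GC content at Pearson r of -0.22, -0.34 and -0.27 in non-Tg replicates 3, 4 and 5. In non-Tg replicates 1 and 2 r was 0.04 and 0.007, and in PS2APP libraries 0.03 to 0.22. With GC-content offsets, added after seeing the data, 204 genes were called (1.66%), 129 higher (1.05% of those tested) and 75 lower (0.611%), and 174 were also called without offsets. The summed markers of neurons, astrocytes, oligodendrocytes, their precursors, endothelial and mural cells, and the mitochondrial share, were each put into the fit as a covariate. The first left 24 calls and the second 26. All 412 genes kept their direction in both, which says little for genes called in these same libraries. The median size of their log2 fold change was 0.93 with the marker covariate and 0.81 with the mitochondrial one, against 0.91 without, while the median SE was 0.33 and 0.28, against 0.215. At least 80% of the size remained in 327 and 274 of the 412 genes. Ccr2 stood at -2.29 and -2.12 with the covariates in that order, Alg11 at -1.93 and -2.096 and Hsph1 at 1.45 and 1.297 on the log2 scale, though none of these 3 passed. Others shrank and did not pass either. Fth1 stood at 0.62 and 0.73 against 1.22 without a covariate, and Nrp1 at 0.72 and 1.005 against 1.26. Cst7, Gpnmb, Apoe, Lpl, Axl, Arhgap6, Baiap2l2, Gfap, Etl4, Myo5a, Myo1e, Itgax, Csf1, Igf1, Trpm1, Lgals3bp and Lnpep passed in each of these fits, Gfap being itself among the summed markers. Leaving out 1 library gave 105 calls (without non-Tg replicate 4) to 652 (without non-Tg replicate 1). The number was 189 without PS2APP replicate 4 and 120 without non-Tg replicate 5. The 100 calls in lists became 51, 44 and 38 without PS2APP replicate 4, non-Tg replicate 5 and non-Tg replicate 4 in that order. List counts given without PS2APP replicate 4 are therefore not always the lowest. Of the 412 genes, 81 passed in all 10 such fits, 54 higher and 27 lower, and 76 of these also with GC-content offsets. The 10 fits named below are these; where a call was lost in some of them, the highest p is given with the library left out.

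Of 53 genes of the actin cytoskeleton, its motors and its adhesions, 8 rose in PS2APP libraries and 0 fell, with a median log2 fold change of 0.16. Without PS2APP replicate 5, non-Tg replicate 4 or non-Tg replicate 5, 4 rose and 0 fell. Myo1e (chromosome 9, 70207350 to 70400067, GRCm38), a single-headed myosin that links membrane to actin at sites of uptake and adhesion, stood at 63.6, 88.8, 138, 114 and 103 CPM in PS2APP libraries, against 17.99, 32.4, 22.6, 29.2 and 18.6 CPM in non-Tg libraries. The lowest PS2APP library was above the highest non-Tg library, with a change of 2.06 ± 0.23 on the log2 scale (edgeR adjusted p = 1.3e-05). Myo5a, a motor that carries vesicles and organelles along actin, stood at 403, 272, 415, 500.4 and 416 CPM in PS2APP libraries, against 166, 128, 159.9, 204 and 177 CPM in non-Tg libraries, again without overlap, a change of 1.26 ± 0.17 on the log2 scale (edgeR adjusted p = 0.00011). Baiap2l2, which binds and bends membrane at actin-rich protrusions, stood at 37.8, 19.6, 24.3, 19.1 and 28.5 CPM in PS2APP libraries, against 1.97, 0.328, 0, 0 and 0.413 CPM in non-Tg libraries, near the floor in 4 of 5 non-Tg libraries (edgeR adjusted p = 1.3e-05). The integrin chain Itgax, also a disease-associated gene, rose by 2.07 ± 0.27. These 4 calls held in all 10 fits. Further members that rose were chosen after their values were seen: the filament-capping protein Capg (1.51 ± 0.35), the cross-linker Actn4 (0.76 ± 0.17), the membrane-bending scaffold Baiap2 (0.99 ± 0.25) and the motor Myo9b (0.60 ± 0.15). Capg (adjusted p = 0.075 without non-Tg replicate 4) and Actn4 (adjusted p = 0.066 without non-Tg replicate 5) held in 6 of 10 fits. Baiap2 (adjusted p = 0.11 without PS2APP replicate 5) and Myo9b (adjusted p = 0.1 without non-Tg replicate 4) held in 4. Of these 4 genes Capg alone passed with GC-content offsets (edgeR adjusted p = 0.046).

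**Figure D1:**
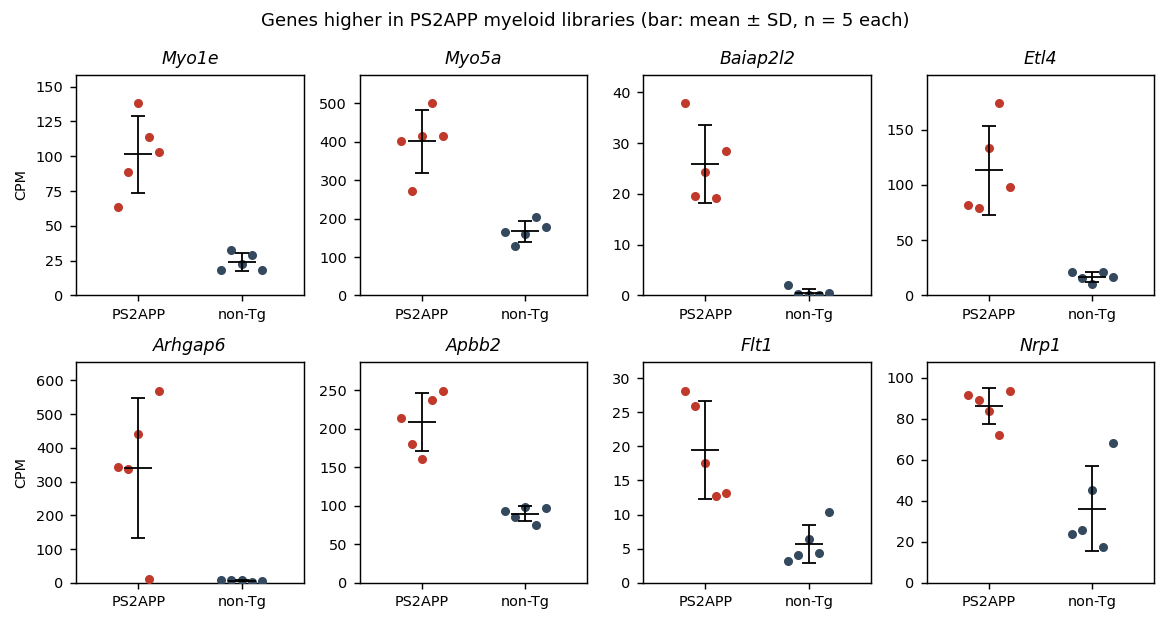
CPM of 8 genes that rose, 1 point per library, PS2APP (red, left) and non-Tg (dark blue, right), with the mean and SD of 5 libraries and axes starting at 0. The groups do not overlap in any of the 8 panels, and the low PS2APP point of Arhgap6 is replicate 4, at 10.8 CPM.

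Regulators that switch the small GTPases of actin assembly on and off moved in both directions: of 49 tested, 4 rose and 4 fell (2 and 4 without PS2APP replicate 4). Arhgap6 (chromosome X, 168795094 to 169304440, GRCm38), a GTPase-activating protein, stood at 344, 338, 440.2, 10.8 and 569 CPM in PS2APP libraries, against 6.90, 8.54, 6.97, 3.42 and 4.13 CPM in non-Tg libraries. PS2APP replicate 4 was close to the highest non-Tg library and the other PS2APP libraries stood far above it. The log2 fold change was 5.84 ± 0.57 (edgeR adjusted p = 1.5e-06), and 6.16 without that library. Arhgap26, which acts in a clathrin-independent route of uptake, rose by 0.98 ± 0.20, and Arhgap5, another GTPase-activating protein, fell. Arhgap5 averaged 145 ± 33.7 CPM in PS2APP libraries and 332 ± 127 CPM in non-Tg libraries (SD, n = 5 each), a change of -1.19 ± 0.22 on the log2 scale (edgeR adjusted p = 0.0063). The calls of Arhgap6, Arhgap26 and Arhgap5 held in all 10 fits and with GC-content offsets. Of the remaining members, chosen after their values were seen, Arhgap17 (0.64 ± 0.17) and the exchange factor Arhgef7 (0.70 ± 0.18) rose. Arhgap17 held in 2 of 10 fits (adjusted p = 0.13 without non-Tg replicate 4) and Arhgef7 in 3 (adjusted p = 0.11 without non-Tg replicate 4), and Arhgef7 was lost with GC-content offsets. Arhgap12 (-0.75 ± 0.16), the exchange factor Arhgef6 (-0.83 ± 0.18) and the Rac and Cdc42 activator Dock10 (-0.61 ± 0.13) fell. Arhgap12 held in all 10 fits. Arhgef6 was lost without non-Tg replicate 5 (edgeR adjusted p = 0.057) and Dock10 without non-Tg replicate 4 (edgeR adjusted p = 0.053). None of these 3 passed with GC-content offsets.

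Gfap and Thy1, also among the largest rises, are described with the astrocyte and neuron markers, and most other large rises outside the disease-associated list belonged to no list. Etl4 (chromosome 2, 19910207 to 20810535, GRCm38), a cytoskeleton-associated protein of the developing notochord, stood at 82.2, 79.3, 133, 174 and 97.8 CPM in PS2APP libraries, against 20.95, 16.1, 10.03, 20.9 and 16.7 CPM in non-Tg libraries, without overlap, a change of 2.73 ± 0.25 on the log2 scale (edgeR adjusted p = 8e-07). Minar1, a membrane protein that binds Notch2, rose by 2.69 ± 0.37, and Rab7b, a small GTPase of transport between late endosomes and the Golgi, by 2.66 ± 0.45. Gas2l3, which cross-links actin and microtubules, rose by 2.46 ± 0.46, and Ldlrad3, a receptor with LDL-receptor domains, by 2.40 ± 0.48. Each of these 5 calls held in all 10 fits and with GC-content offsets, and in none of the 5 genes did the groups overlap. Faxc, named for an axon-guidance gene of the fly, rose by 2.41 ± 0.60 in 6 of 10 fits (adjusted p = 0.11 without PS2APP replicate 2). It stood at 35.4 CPM in PS2APP replicate 2 and at 7.22 to 12.7 CPM in the other PS2APP libraries. Erdr1 rose by 2.54 ± 0.50, but it lies at the pseudoautosomal end of the X chromosome, where copies can share or lose uniquely aligned reads, so its level is uncertain.

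Among abundant genes of smallest p, Apbb2, an adaptor that binds the intracellular tail of amyloid precursor protein, stood at 214, 181, 161, 238 and 249.6 CPM in PS2APP libraries, against 92.7, 85.2, 98.6, 74.7 and 97.7 CPM in non-Tg libraries. Each PS2APP library was above each non-Tg library, a change of 1.22 ± 0.16 on the log2 scale (edgeR adjusted p = 0.00012). Gnas, the alpha subunit of the stimulatory G protein and part of an imprinted locus of overlapping transcripts, averaged 207 ± 17.01 CPM in PS2APP libraries and 112 ± 7.29 CPM in non-Tg libraries (SD, n = 5 each), a change of 0.88 ± 0.15 on the log2 scale (edgeR adjusted p = 0.0016). Lrguk rose by 1.22 ± 0.20. These 3 calls held in all 10 fits and with GC-content offsets. Trpm1, a cation channel best known from the retina and chosen after its values were seen, averaged 5.86 ± 1.16 CPM in PS2APP libraries and 0.0557 ± 0.125 CPM in non-Tg libraries (SD, n = 5 each). It was at 0 in 4 of the 5 non-Tg libraries (edgeR adjusted p = 9.1e-05), so no fold is given. Lgals3bp, a secreted galectin-binding glycoprotein, rose by 1.12 ± 0.23 and Lnpep, an aminopeptidase of endosomes that trims peptides for MHC class I, fell by 1.05 ± 0.21 on the log2 scale. Both, chosen once values were known, held in all 10 fits, though in each 1 PS2APP library lay within the non-Tg range. The RNA genes mt-Rnr2, the large ribosomal RNA of the mitochondrion (1.75 ± 0.25), and AY036118 (1.52 ± 0.24) rose as well. At 15148 to 25143 CPM in PS2APP libraries, mt-Rnr2 is itself part of the mitochondrial and ribosomal RNA shares. Its rise and the higher shares are therefore not separate observations.

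Ccr2, Tlr13 and Lair1, receptors for immune signals, fell in all 10 fits and with GC-content offsets. Of 15 chemokine and chemoattractant receptors tested, 0 rose and 3 fell, among them Ccr2 and Cx3cr1. With GC-content offsets 0 rose and 2 fell, without PS2APP replicate 4 only Ccr2 was called, and the median was -0.40. Ccr2 (chromosome 9, 124101918 to 124109140, GRCm38), the receptor through which blood monocytes follow Ccl2, stood at 5.40, 5.81, 4.94, 3.82 and 2.25 CPM in PS2APP libraries, against 14.8, 13.96, 19.8, 32.6 and 18.2 CPM in non-Tg libraries. The highest PS2APP library was below the lowest non-Tg library, a change of -2.16 ± 0.41 on the log2 scale (edgeR adjusted p = 0.0067). Cx3cr1, the receptor for the neuronal chemokine Cx3cl1, fell by 0.58 ± 0.15 on the log2 scale in 3 of 10 fits (adjusted p = 0.1 without non-Tg replicate 4).

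Of 30 genes of Toll-like receptor and NF-kB signalling, 1 rose and 3 fell, while Tlr13 alone was called with GC-content offsets and also without PS2APP replicate 4. The median was -0.04. Tlr13 (chromosome X, 106143275 to 106160493, GRCm38), an endosomal receptor for bacterial ribosomal RNA, stood at 50.1, 54.4, 46.8, 39.5 and 45.4 CPM in PS2APP libraries, against 63.1, 101, 85.8, 149 and 103 CPM in non-Tg libraries. The ranges were apart, with a change of -1.09 ± 0.21 on the log2 scale (edgeR adjusted p = 0.007). Tlr7, the endosomal receptor for single-stranded RNA, had a change of -0.90 ± 0.22 on the log2 scale (edgeR adjusted p = 0.027) and held in 4 of 10 fits (adjusted p = 0.11 without non-Tg replicate 4). Tlr6, a partner of Tlr2 chosen after its values were seen, had a change of -0.93 ± 0.25 on the log2 scale (edgeR adjusted p = 0.038) and held in 2 (adjusted p = 0.13 without non-Tg replicate 4). Both were lost with GC-content offsets. Nfkbiz, a nuclear cofactor of NF-kB, rose by 0.89 ± 0.23 in 4 of 10 fits (adjusted p = 0.11 without PS2APP replicate 4) and was lost with offsets too.

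Of 38 Fc, Siglec and inhibitory immune receptors, 1 rose and 4 fell, with a median of -0.24. The counts were 1 and 1 with GC-content offsets, and 0 and 2 without PS2APP replicate 4. Lair1, an inhibitory receptor for collagen and C1q, stood at 239.9, 258, 274, 183 and 319 CPM in PS2APP libraries, against 356, 525, 392.01, 540.3 and 499 CPM in non-Tg libraries. The groups did not overlap, with a change of -0.86 ± 0.17 on the log2 scale (edgeR adjusted p = 0.007). Cd84, a homophilic receptor of the SLAM family, fell by 0.78 ± 0.17 on the log2 scale and was lost without non-Tg replicate 4 (edgeR adjusted p = 0.056) and with GC-content offsets. Cd33, a sialic acid-binding inhibitory receptor, had a change of -0.81 ± 0.22 on the log2 scale (edgeR adjusted p = 0.046) and held in 2 of 10 fits (adjusted p = 0.14 without non-Tg replicate 4). Havcr2, also called Tim-3 and chosen after its values were seen, had a change of -0.81 ± 0.20 on the log2 scale (edgeR adjusted p = 0.031) and held in 2 as well (adjusted p = 0.096 without non-Tg replicate 5). Both were lost with GC-content offsets (adjusted p = 0.19 for Cd33 and 0.092 for Havcr2). The member that rose was Lilrb4a, an inhibitory receptor of the disease-associated list (0.94 ± 0.23), in 5 of 10 fits (adjusted p = 0.091 without non-Tg replicate 5).

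**Figure D2:**
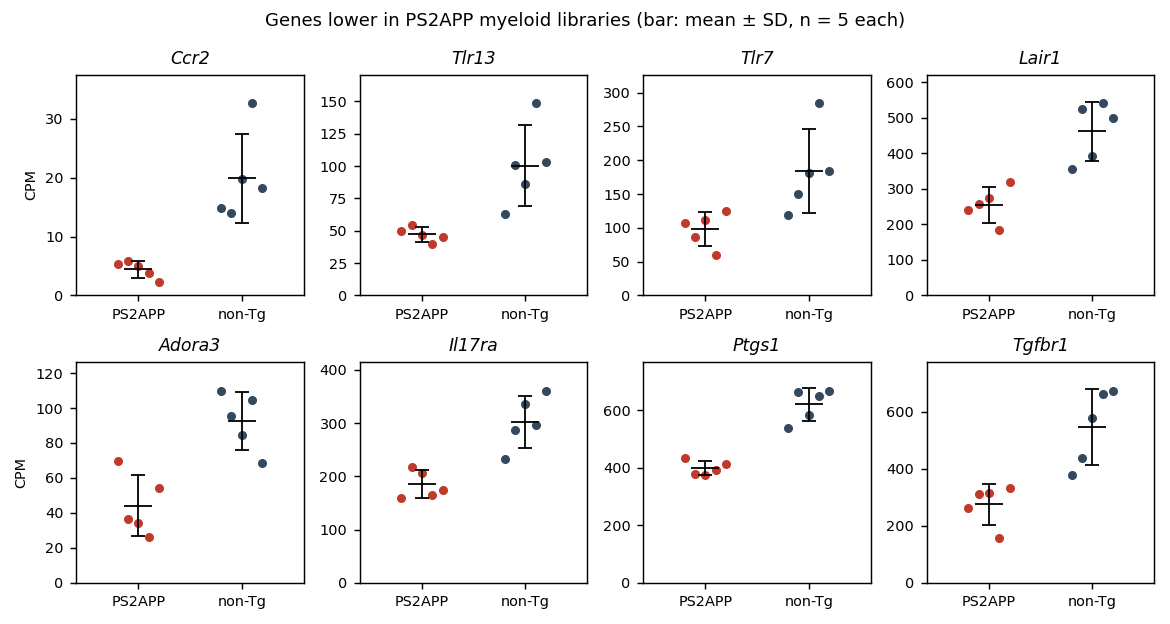
CPM of 8 genes that fell, 1 point per library, PS2APP (red, left) and non-Tg (dark blue, right), with the mean and SD of 5 libraries and axes starting at 0. Tlr7 and Adora3 overlap between the groups, while Ccr2, Tlr13, Lair1, Il17ra, Ptgs1 and Tgfbr1 do not.

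Of 26 purinergic and other G-protein-coupled receptors of microglia, 0 rose and 4 fell. The counts were 0 and 2 without PS2APP replicate 4, and 0 and 0 without non-Tg replicate 4. Of the 26, 21 had a negative log2 fold change (median -0.39). Adora3, an adenosine receptor, averaged 44.1 ± 17.5 CPM in PS2APP libraries and 92.7 ± 16.6 CPM in non-Tg libraries (SD, n = 5 each), a change of -1.06 ± 0.23 on the log2 scale (edgeR adjusted p = 0.019). It was lost without PS2APP replicate 3 and without non-Tg replicate 4 (adjusted p = 0.057 without non-Tg replicate 4). Adgre1, which encodes the macrophage antigen F4/80 and was chosen after its values were seen, fell by 0.76 ± 0.21 on the log2 scale in 2 of 10 fits (adjusted p = 0.11 without non-Tg replicate 2). P2ry13, a receptor for ADP, and Adgrg1, an adhesion receptor, both on the homeostatic list, had log2 fold changes of -0.65 ± 0.18 and -0.62 ± 0.14. P2ry13 held in 2 of 10 fits (adjusted p = 0.14 without non-Tg replicate 4) and Adgrg1 in 6 (adjusted p = 0.064 without PS2APP replicate 5). Adgre1 and P2ry13 were lost with GC-content offsets.

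Receptors for cytokines and a prostaglandin enzyme, which stand in no list, were chosen after their values were seen. Il17ra, a receptor chain for interleukin 17, averaged 185 ± 26.00 CPM in PS2APP libraries and 303 ± 49.2 CPM in non-Tg libraries (SD, n = 5 each). Its log2 fold change was -0.71 ± 0.16, lost without non-Tg replicate 5 (edgeR adjusted p = 0.065) and kept with GC-content offsets. Il6st, the signal chain shared by receptors of the interleukin 6 family, fell by 0.68 ± 0.16 and Ifngr1, a receptor chain for interferon gamma, by 0.66 ± 0.17 on the log2 scale. Il6st held in 5 of 10 fits (adjusted p = 0.093 without non-Tg replicate 4) and Ifngr1 in 3 (adjusted p = 0.12 without non-Tg replicate 4), and Ifngr1 was lost with offsets. Ptgs1, the cyclooxygenase that microglia express at rest, stood at 434, 379, 375, 394 and 414 CPM in PS2APP libraries, against 539.6, 663, 583, 650.1 and 669 CPM in non-Tg libraries. PS2APP libraries were close to each other and all below the non-Tg range. The change of -0.64 ± 0.13 on the log2 scale (edgeR adjusted p = 0.013) held in all 10 fits and with GC-content offsets.

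Other receptor and uptake genes moved in small numbers, to be set against the 3.36% called of all genes tested. Of 23 phagocytosis receptors and bridging molecules 1 rose, Axl, a disease-associated gene and receptor kinase for Gas6 (1.68 ± 0.24), and 2 fell: the integrin chain Itgav (-0.79 ± 0.18) and Pros1, a bridging ligand of Axl-family receptors (-1.002 ± 0.25). Of 27 TGF-beta signalling genes 0 rose and 2 fell, Tgfbr1, a receptor for TGF-beta (-0.99 ± 0.20), and again Itgav, whose dimers release TGF-beta from its latent form. Of the 27, 20 had a negative log2 fold change, with a median of -0.16. Of 14 complement genes 1 rose, Itgax, and 1 fell. Tgfbr1 held in all 10 fits, Itgav in 7 (adjusted p = 0.075 without non-Tg replicate 4) and Pros1 in 4 (adjusted p = 0.1 without non-Tg replicate 4). With GC-content offsets Tgfbr1 and Axl passed, and Itgav and Pros1 did not.

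Of 34 interferon response genes 2 rose and 1 fell, or 1 and 0 without PS2APP replicate 4 and 0 and 0 without non-Tg replicate 4. Log2 fold changes were above 0 for 31 of them, and the median was 0.57. Stat2, a transcription factor that carries the type I interferon signal to the nucleus, stood at 137, 166, 289, 132 and 232 CPM in PS2APP libraries, against 115, 111, 109.8, 80.8 and 70.02 CPM in non-Tg libraries. The ranges were apart, with PS2APP replicates 3 and 5 highest. The change of 0.98 ± 0.21 on the log2 scale (edgeR adjusted p = 0.016) was lost without PS2APP replicate 3, non-Tg replicate 4 or non-Tg replicate 5 (adjusted p = 0.057 without non-Tg replicate 4) and kept with GC-content offsets. Zbp1, a sensor of Z-form nucleic acid that can start necroptosis, stood at 25.8, 28.5, 88.95, 85.3 and 22.1 CPM in PS2APP libraries, against 21.4, 23.3, 10.9, 9.53 and 7.23 CPM in non-Tg libraries. PS2APP replicates 3 and 4 were well above the rest, and PS2APP replicate 5 lay within the non-Tg range. The change of 1.78 ± 0.41 held in 5 of 10 fits (adjusted p = 0.075 without PS2APP replicate 3). The gene that fell was Xaf1, a pro-apoptotic interferon-induced protein (-1.32 ± 0.34), in 3 of 10 fits (adjusted p = 0.099 without non-Tg replicate 5) and not with GC-content offsets.

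Genes next to this list were chosen after their values were seen. Gbp6, a guanylate-binding GTPase that attacks pathogen vacuoles, rose and stood at 6.17, 3.70, 14.1, 5.09 and 4.50 CPM in PS2APP libraries, against 1.97, 1.64, 0.557, 0.569 and 1.03 CPM in non-Tg libraries. Non-Tg replicates 3 and 4 were near or below the level of 3 counts, so no fold is given (edgeR adjusted p = 0.024). Ifi204, a DNA sensor family member whose close relatives can share reads, rose by 1.28 ± 0.35. Gbp6 held in 6 of 10 fits (adjusted p = 0.096 without non-Tg replicate 4) and Ifi204 in 3 (adjusted p = 0.14 without PS2APP replicate 3).

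In MHC class I presentation 1 of 16 genes tested rose, the class I transactivator Nlrc5. It stood at 99.5, 101, 366, 189 and 104 CPM in PS2APP libraries, against 46.3, 72.3, 45.1, 27.2 and 44.4 CPM in non-Tg libraries. PS2APP replicate 3 was highest for Nlrc5, as for Stat2, Zbp1, Gbp6 and Ifi204. The change of 1.87 ± 0.31 on the log2 scale (edgeR adjusted p = 0.0018) held in all 10 fits and with GC-content offsets. Of 13 genes of MHC class II presentation none passed in edgeR and 11 had a negative log2 fold change (median -0.51). H2-Ab1, a class II beta chain, had a change of -0.91 ± 0.28 on the log2 scale (edgeR adjusted p = 0.072). Of 25 inflammatory cytokine and inflammasome genes none passed in edgeR, with a median of -0.16.

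Of 28 growth factors and their receptors tested, 4 rose and 0 fell: Igf1, Csf1, Nrp1 and Flt1. Igf1, insulin-like growth factor 1, and Csf1, a ligand of Csf1r, are disease-associated genes (3.22 ± 0.38 and 1.85 ± 0.24) and held in all 10 fits. Nrp1, a coreceptor for VEGF and semaphorins, stood at 91.8, 89.3, 84.01, 71.9 and 93.7 CPM in PS2APP libraries, against 23.9, 25.8, 45.4, 17.4 and 68.2 CPM in non-Tg libraries. There was no overlap, although non-Tg replicate 5 came close, and the change of 1.26 ± 0.28 on the log2 scale (edgeR adjusted p = 0.019) was lost without non-Tg replicate 4 (edgeR adjusted p = 0.055). Flt1, a VEGF receptor that endothelial cells also express, stood at 28.2, 25.9, 17.5, 12.7 and 13.1 CPM in PS2APP libraries, against 3.20, 4.11, 6.41, 4.41 and 10.3 CPM in non-Tg libraries. Its log2 fold change of 1.78 ± 0.42 was lost without PS2APP replicate 1 and without non-Tg replicate 4 (adjusted p = 0.082 without non-Tg replicate 4). All 4 passed with GC-content offsets. The summed endothelial markers, of which Flt1 is 1, ranged over 68.8 to 126 CPM in PS2APP libraries and 57.5 to 83.9 CPM in non-Tg libraries, and their part in the rise of Flt1 was not tested.

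Lipid, iron and energy genes changed in few members. Of 22 genes of lipid uptake, storage and efflux 3 rose and 0 fell: Apoe and Lpl, both disease-associated, and Pnpla2, the lipase that starts the breakdown of stored triglyceride. Pnpla2 averaged 66.2 ± 23.9 CPM in PS2APP libraries and 29.5 ± 8.67 CPM in non-Tg libraries (SD, n = 5 each). Its log2 fold change of 1.17 ± 0.27 held in 7 of 10 fits (adjusted p = 0.067 without non-Tg replicate 5) and was lost with GC-content offsets. Of 28 oxidative stress and iron genes 1 rose and 1 fell. Fth1, the heavy chain of the iron store ferritin and a disease-associated gene, stood at 620.3, 1173, 839.7, 1125 and 892 CPM in PS2APP libraries, against 436, 313, 397, 306 and 548 CPM in non-Tg libraries, without overlap, a log2 fold change of 1.22 ± 0.19 that held in all 10 fits. With the other-cell and mitochondrial covariates it stood at 0.62 and 0.73 and did not pass. Slc40a1, ferroportin, the exporter of iron, stood at 21.99, 25.4, 21.7, 26.7 and 29.6 CPM in PS2APP libraries, against 45.1, 28.7, 46.8, 59.9 and 70.8 CPM in non-Tg libraries. Its ranges overlapped through non-Tg replicate 2, and the change of -1.005 ± 0.25 on the log2 scale (edgeR adjusted p = 0.032) held in 4 of 10 fits (adjusted p = 0.11 without non-Tg replicate 5) and was lost with GC-content offsets.

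Of 21 glycolysis genes 2 rose and 0 fell, the kinases Pkm (0.81 ± 0.21) and Pfkl (0.87 ± 0.23). Pkm held in 4 of 10 fits (adjusted p = 0.099 without PS2APP replicate 4) and Pfkl in 1 (adjusted p = 0.13 without non-Tg replicate 4), and both were lost with GC-content offsets and without PS2APP replicate 4. Of 7 protein-coding mitochondrial genes tested 3 rose, the complex I subunits ND5 (0.85 ± 0.22), ND4 (0.82 ± 0.22) and ND2 (0.76 ± 0.21). They held in 4, 3 and 1 of 10 fits in that order, with the highest p without non-Tg replicate 4 in each (0.13, 0.13 and 0.15). None was called without PS2APP replicate 4, and all 7 rose with GC-content offsets. Of 28 nuclear genes of the respiratory chain, 23 of the citrate cycle and 17 of sterol synthesis none passed in edgeR, with medians of 0.24, 0.20 and 0.02.

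Of 39 lysosomal hydrolases none passed in edgeR, 18 had a positive and 21 a negative log2 fold change, and the median was -0.02. The heparan sulfatase Sgsh had a change of -0.91 ± 0.29 on the log2 scale (edgeR adjusted p = 0.083). Of 25 genes of the lysosomal membrane and proton pump 0 rose and 2 fell, or 0 without PS2APP replicate 4: Slc38a9, the arginine sensor of the lysosome (-0.96 ± 0.25), and Atp6ap1, an accessory subunit of the pump (-0.65 ± 0.18). Slc38a9 held in 3 of 10 fits (adjusted p = 0.11 without non-Tg replicate 4) and Atp6ap1 in 2 (adjusted p = 0.15 without non-Tg replicate 5). With GC-content offsets Atp6ap1 still passed, Slc38a9 did not, and the pump subunit Atp6v1a passed as a rise (edgeR adjusted p = 0.03, against 0.056 without offsets). Of 29 autophagy genes 0 rose and 2 fell, Rb1cc1 (-0.71 ± 0.17) and Ulk2 (-0.60 ± 0.17), a scaffold and a kinase of the complex that starts autophagy. Rb1cc1 held in 4 of 10 fits (adjusted p = 0.091 without non-Tg replicate 5) and Ulk2 in 2 (adjusted p = 0.13 without non-Tg replicate 4), and neither passed with GC-content offsets or without PS2APP replicate 4. The list median was positive, at 0.22.

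Of 21 genes of the circadian clock and its output, 1 rose and 4 fell, or 23.8% called, and the same 5 genes were called with GC-content offsets. Without PS2APP replicate 4, 0 rose and 2 fell. The clock is a loop in which Clock and Arntl bind E-boxes and drive Per, Cry and Nr1d genes and the output factors Dbp, Tef and Hlf, which act on D-boxes. Levels of these genes follow the hour of the day, and no hour of collection is given in the labels, so its part in the result was not tested. The promoter windows of the genes that fell are shown because they moved together. The RefSeq table (GRCm38.p6) holds windows from 250 bases before to 50 after a start for 3 of the 4, read 5′ to 3′ on the gene's strand. Capitals mark the E-box CACGTG or the D-box TTANGTAA searched on both strands, and no match in these windows overlaps another. Of 32851 such windows 7.15% hold an E-box and 2.32% a D-box. Dbp (chr7:45704997-45705296, plus strand) holds neither, Tef (2 starts, plus strand) 1 E-box in each window, and Per3 (chr4:151044616-151044915, minus strand) 2 D-boxes. The Tef windows lie at chr15:81802423-81802722 and chr15:81811164-81811463. These matches are a description of letters and show no binding.
Dbp: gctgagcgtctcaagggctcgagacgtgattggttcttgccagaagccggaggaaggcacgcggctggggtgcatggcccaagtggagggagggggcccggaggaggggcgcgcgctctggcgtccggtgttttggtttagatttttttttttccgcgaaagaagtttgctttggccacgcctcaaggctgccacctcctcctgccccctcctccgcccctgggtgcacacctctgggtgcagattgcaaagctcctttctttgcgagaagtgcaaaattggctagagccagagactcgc
Tef, first start: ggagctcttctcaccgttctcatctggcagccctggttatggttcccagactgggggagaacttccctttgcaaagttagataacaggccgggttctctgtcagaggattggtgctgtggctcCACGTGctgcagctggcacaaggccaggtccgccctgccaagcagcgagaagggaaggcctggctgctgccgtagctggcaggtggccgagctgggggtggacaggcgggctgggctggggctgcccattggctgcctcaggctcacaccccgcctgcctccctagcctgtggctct
Tef, second start: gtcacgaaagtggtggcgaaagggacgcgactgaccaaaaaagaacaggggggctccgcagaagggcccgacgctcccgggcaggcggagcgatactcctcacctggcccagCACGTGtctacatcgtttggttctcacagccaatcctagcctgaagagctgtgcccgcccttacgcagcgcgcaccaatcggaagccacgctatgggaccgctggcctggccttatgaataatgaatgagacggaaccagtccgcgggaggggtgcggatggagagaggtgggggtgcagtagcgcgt
Per3: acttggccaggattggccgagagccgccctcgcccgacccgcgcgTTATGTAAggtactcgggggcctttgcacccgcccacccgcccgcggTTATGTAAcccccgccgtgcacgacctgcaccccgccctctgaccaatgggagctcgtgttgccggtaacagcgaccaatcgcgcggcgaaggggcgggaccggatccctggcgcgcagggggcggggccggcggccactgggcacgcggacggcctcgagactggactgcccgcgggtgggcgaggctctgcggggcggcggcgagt

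Per3, a repressor in the loop whose window holds the D-boxes above, stood at 79.1, 28.01, 43.7, 25.5 and 71.2 CPM in PS2APP libraries, against 189, 102, 144, 119.7 and 112 CPM in non-Tg libraries. The highest PS2APP library was below the lowest non-Tg library, and the change of -1.41 ± 0.26 on the log2 scale (edgeR adjusted p = 0.0063) held in all 10 fits. Dbp stood at 6.56, 8.45, 4.56, 3.82 and 7.87 CPM in PS2APP libraries, against 35.2, 11.8, 13.7, 11.95 and 29.5 CPM in non-Tg libraries, again without overlap, though non-Tg replicates 1 and 5 were far above the others of their group. The change of -1.69 ± 0.42 on the log2 scale (edgeR adjusted p = 0.03) held in 6 of 10 fits (adjusted p = 0.099 without non-Tg replicate 5). Tef, the gene with an E-box at each start, stood at 62.9, 38.6, 47.9, 38.2 and 71.97 CPM in PS2APP libraries, against 174, 99.9, 77.5, 67.2 and 133 CPM in non-Tg libraries, with overlap between PS2APP replicate 5 and non-Tg replicate 4. Its log2 fold change of -1.08 ± 0.25 held in 7 of 10 fits (adjusted p = 0.067 without non-Tg replicate 5). Per2, a repressor chosen after its values were seen, stood at 24.7, 12.2, 15.97, 22.3 and 14.6 CPM in PS2APP libraries, against 63.1, 48.1, 27.03, 28.3 and 35.9 CPM in non-Tg libraries . It fell without overlap (-1.17 ± 0.30), in 3 of 10 fits (adjusted p = 0.075 without PS2APP replicate 3).

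Bhlhe40, a repressor that competes for E-boxes and is also a transcription factor of lipid-handling macrophages, rose, standing at 22.8, 28.5, 23.2, 56.7 and 16.9 CPM in PS2APP libraries, against 2.47, 6.57, 6.97, 14.9 and 8.26 CPM in non-Tg libraries. PS2APP replicate 4 was highest, and without it the change of 1.88 ± 0.42 on the log2 scale (edgeR adjusted p = 0.019) was lost (edgeR adjusted p = 0.062). Other members, chosen after their values were seen, did not pass. Log2 fold changes in edgeR were 0.81 ± 0.32, adjusted p = 0.16, for Arntl, and 0.67 ± 0.28, adjusted p = 0.2, for Per1. They were -0.72 ± 0.28, adjusted p = 0.16, for Nr1d2, and -0.27 ± 0.30, adjusted p = 0.66, for Nr1d1. The median of the list was -0.12.

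**Figure D3:**
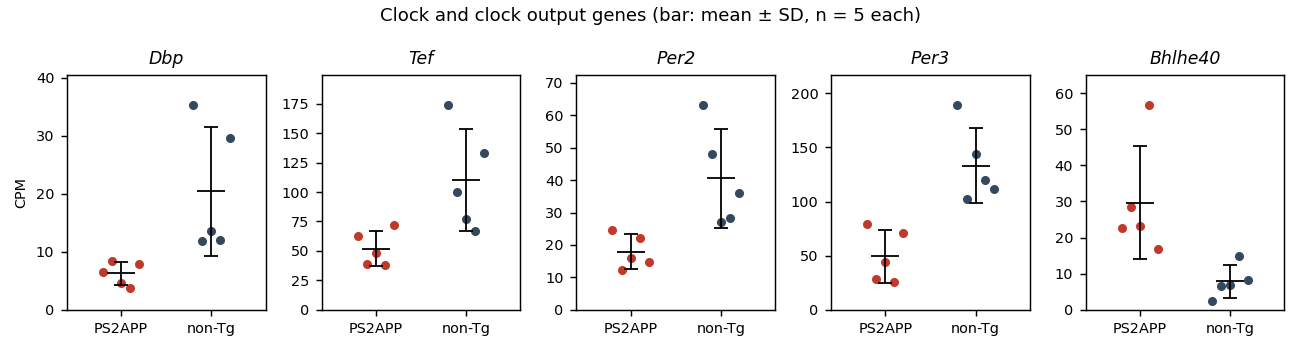
CPM of the 5 clock genes called, 1 point per library, PS2APP (red, left) and non-Tg (dark blue, right), with the mean and SD of 5 libraries and axes starting at 0. Dbp, Per2 and Per3 are lower in PS2APP libraries and Bhlhe40 higher with no overlap, while Tef overlaps.

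Of 34 genes tested that build N-linked glycans, 0 rose, 3 fell and 27 had a negative log2 fold change (median -0.34). Alg11 (chromosome 8, 22060721 to 22071627, GRCm38), which adds mannose to the lipid-linked sugar chain on the cytosolic face of the endoplasmic reticulum, stood at 5.79, 5.81, 7.98, 1.27 and 4.12 CPM in PS2APP libraries, against 14.3, 17.4, 29.3, 28.3 and 18.4 CPM in non-Tg libraries. No library of 1 group reached into the range of the other, and the change of -2.07 ± 0.42 on the log2 scale (edgeR adjusted p = 0.0088) held in all 10 fits. Mpdu1, needed for the use of dolichol-linked sugars, averaged 13.3 ± 4.41 CPM in PS2APP libraries and 30.6 ± 7.24 CPM in non-Tg libraries (SD, n = 5 each). Its log2 fold change of -1.19 ± 0.31 held in 3 of 10 fits (adjusted p = 0.086 without non-Tg replicate 2). Mgat4a, which branches finished chains in the Golgi, stood at 125 to 263 CPM in PS2APP libraries, against 331 to 389 CPM in non-Tg libraries, a log2 fold change of -0.76 ± 0.17 lost without non-Tg replicate 4 (edgeR adjusted p = 0.059). The 3 calls stood with GC-content offsets. Tmem241, a transporter of nucleotide sugar into the Golgi that is in no list, stood at 8.87, 5.28, 6.08, 5.73 and 7.12 CPM in PS2APP libraries, against 25.1, 20.04, 21.7, 22.8 and 22.9 CPM in non-Tg libraries. Every PS2APP library was far below every non-Tg library, and the change of -1.75 ± 0.34 on the log2 scale (edgeR adjusted p = 0.007) held in all 10 fits.

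The other largest falls were Kcp, a modulator of BMP signals (-1.94 ± 0.49), Jpx, a noncoding RNA of the X-inactivation centre (-1.76 ± 0.50), the zinc finger genes Zfp518a (-1.67 ± 0.38) and Zfp87 (-1.44 ± 0.31), Tmem9b (-1.61 ± 0.40) and Fbxw2, an F-box protein of a ubiquitin ligase (-1.55 ± 0.39). In each the groups did not overlap. Kcp held in 4 of 10 fits (adjusted p = 0.1 without non-Tg replicate 5) and Jpx in 2 (adjusted p = 0.16 without non-Tg replicate 5). Zfp518a (adjusted p = 0.08 without non-Tg replicate 5) and Zfp87 (adjusted p = 0.059 without non-Tg replicate 5) held in 8, lost without non-Tg replicate 4 or 5. Tmem9b (adjusted p = 0.11 without non-Tg replicate 4) and Fbxw2 (adjusted p = 0.11 without non-Tg replicate 4) held in 5. With GC-content offsets Kcp, Zfp87 and Tmem9b passed.

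Of 24 heat shock genes tested 3 rose and 0 fell, or 1 and 0 without PS2APP replicate 4. Hsph1, a cochaperone of Hsp70 that helps dissolve aggregates, stood at 135, 147, 141, 139 and 216 CPM in PS2APP libraries, against 108, 48.6, 56.6, 42.3 and 43.2 CPM in non-Tg libraries. PS2APP replicate 5 and non-Tg replicate 1 stood above the others of their groups, and the ranges were apart. The change of 1.39 ± 0.23 on the log2 scale (edgeR adjusted p = 0.0017) held in all 10 fits and with GC-content offsets. The small chaperone Cryab, which oligodendrocytes also express, and Hsp90ab1 rose by 1.52 ± 0.39 and 0.61 ± 0.16. Cryab held in 3 of 10 fits (adjusted p = 0.11 without non-Tg replicate 4) and Hsp90ab1 in 4 (adjusted p = 0.11 without non-Tg replicate 5), and neither passed with offsets. Of 31 genes of the unfolded protein and integrated stress response Edem1 alone was called, at -0.79 ± 0.21, in 1 of 10 fits (adjusted p = 0.15 without non-Tg replicate 4). Of 24 apoptosis and survival genes Mcl1, a survival factor of the Bcl2 family, alone was called, at -0.85 ± 0.23, in 2 of 10 fits (adjusted p = 0.17 without non-Tg replicate 4). Neither passed with GC-content offsets or without PS2APP replicate 4. The shares called in their lists, 3.2% and 4.2%, were near the 3.36% of all genes tested. Of 23 cell cycle genes, 22 immediate early genes and 29 solute transport genes none passed in edgeR, with medians of -0.07, 0.38 and 0.05.

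For the 9 function lists with no gene called in edgeR, the number of members at an unadjusted p under 0.05 and the calls of the other tools were read as well. Of the lysosomal hydrolases 13 of 39 had an unadjusted p under 0.05, and DESeq2 called Ctsa, Ctsz and Sgsh and limma-voom 3 genes, among them Ctsa and Lgmn. Of MHC class II genes 5 of 13 were under 0.05, and DESeq2 called the costimulatory ligand Cd80. Of inflammatory cytokine and inflammasome genes 5 of 25 were, with Il18bp called by DESeq2 and Nlrp1b by limma-voom. Counts under 0.05 were 5 of 22 for immediate early genes, 5 of 29 for solute transport, 5 of 23 for the citrate cycle, 4 of 28 for the respiratory chain, 3 of 17 for sterol synthesis and 0 of 23 for the cell cycle. DESeq2 called Zfp36, Slc1a3, Mdh2, Ndufs1 and Mvk among these, limma-voom Zfp36 and Slc1a3.

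The remaining lists stand close to known plaque biology or hold single calls. Of 30 disease-associated genes, compiled with results of these mice known, 16 rose and 0 fell. Of 20 homeostatic genes 0 rose and 6 fell, or 2 without PS2APP replicate 4 and 1 without non-Tg replicate 4. Of 10 chemokines 2 rose, Ccl3 (3.22 ± 0.37), in all 10 fits, and Ccl4 (2.19 ± 0.52), in 5 (adjusted p = 0.072 without PS2APP replicate 5). Of 33 genes of Trem2 and immune-receptor signalling Tyrobp, the adaptor of Trem2, rose by 0.64 ± 0.15 in 8 of 10 fits (adjusted p = 0.067 without non-Tg replicate 4). This single call is 3.03% of the list, against 3.36% of all genes tested. Tyrobp was lost with GC-content offsets (adjusted p = 0.087), which left 0 genes called in that list. Of 29 macrophage transcription factors Bhlhe40 rose and Mef2a fell (-0.55 ± 0.15), and Mef2a held in 2 of 10 fits (adjusted p = 0.14 without non-Tg replicate 4) and was lost with offsets. Neither passed without PS2APP replicate 4. Of 32 genes of the extracellular matrix and its proteases 1 was called (3.1%, also near the share of all genes). It was Sparc (-0.65 ± 0.16), a matricellular protein of microglia at rest, in 4 of 10 fits (adjusted p = 0.097 without non-Tg replicate 4) and not without PS2APP replicate 4. Of 30 Alzheimer risk genes Apoe and the kinase Ptk2b rose and Cd33 fell, Ptk2b by 0.54 ± 0.15 in 2 of 10 fits (adjusted p = 0.14 without non-Tg replicate 5). Apoe alone passed with GC-content offsets and also without PS2APP replicate 4.

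**Figure D4:**
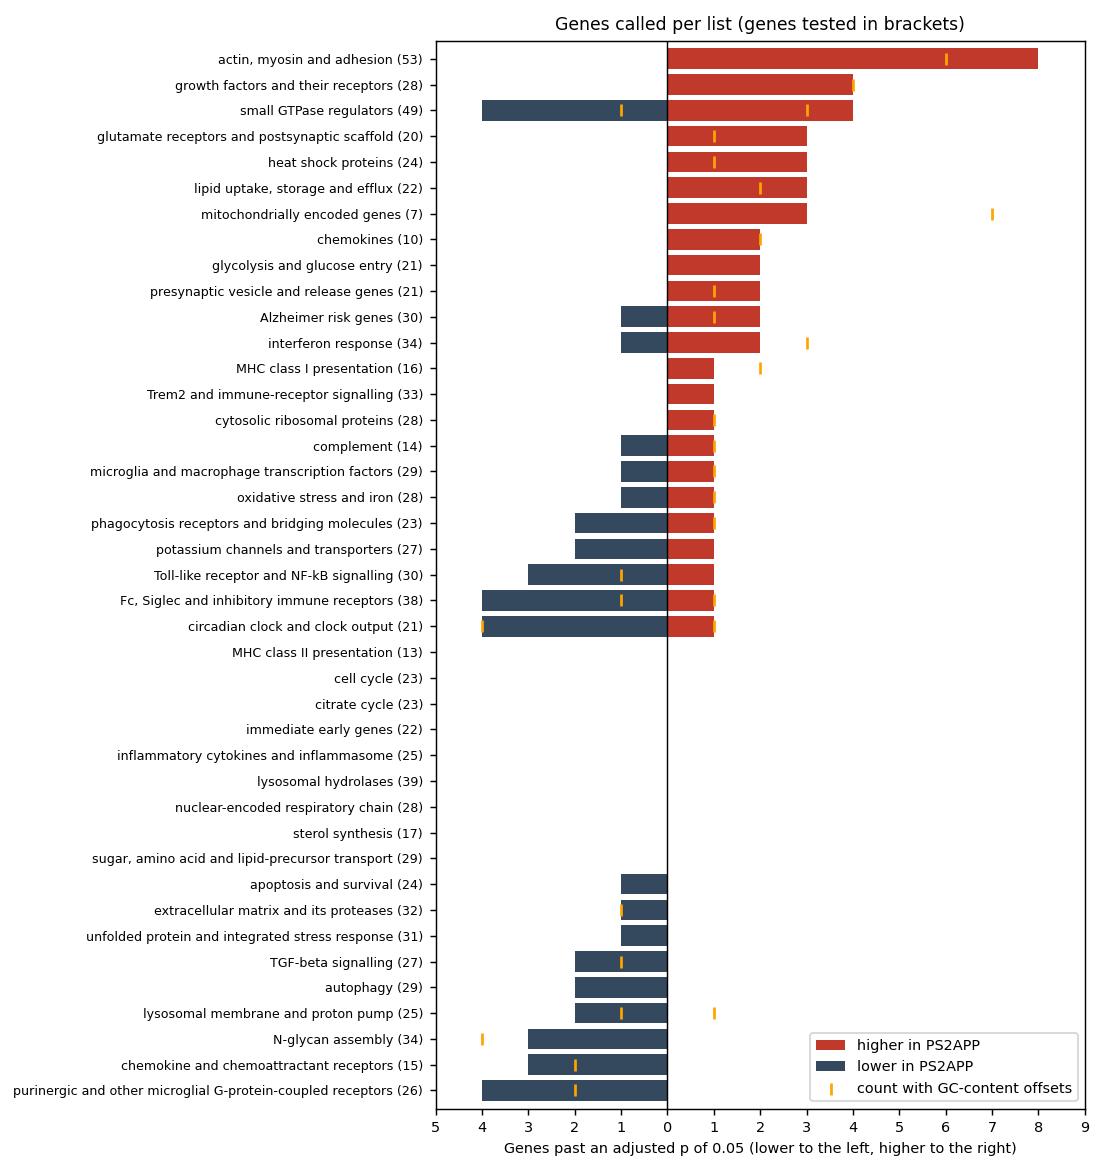
Number of genes called in each of 41 function lists, the disease-associated and homeostatic lists being left out, higher in PS2APP to the right (red) and lower to the left (dark blue), with the number tested in brackets and orange ticks for the counts above 0 with GC-content offsets. Of those drawn, actin, myosin and adhesion has the longest bar to the right, with 8 genes, and clock, G-protein-coupled receptor, inhibitory receptor and small GTPase regulator lists have 4 each to the left.

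Lineage composition was read from summed markers per library, described without a test; in such bulk samples fewer cells of a type and less RNA per cell cannot be told apart. The 14 microglia markers summed to 10254, 9413, 9693, 8789 and 11233 CPM in PS2APP libraries, against 11434, 12554, 11709, 12952 and 12072 CPM in non-Tg libraries. PS2APP libraries were lower without overlap, and 12 of the 14 had a negative log2 fold change. Several of these markers are themselves genes of the surveying state, and 3 of them, Tmem119, Cx3cr1 and Sparc, were called, or 0 without PS2APP replicate 4. Tmem119 held in 3 of 10 fits (adjusted p = 0.14 without non-Tg replicate 4). In the study's astrocyte libraries these markers summed to a median of 303 CPM (PS2APP) and 260.5 CPM (non-Tg), and in the myeloid libraries on the same scale to 8839 and 13383 CPM.

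Summed markers of other myeloid lineages varied within each group. Markers of border-associated macrophages, which line the meninges and vessels, summed to 782 to 1182 CPM in PS2APP libraries and 639 to 1276 CPM in non-Tg libraries. Their ranges coincided, and none of 7 tested markers passed in edgeR. Mrc1, the mannose receptor, had a change of -0.66 ± 0.37 on the log2 scale (edgeR adjusted p = 0.35). Neutrophil markers summed to 360.3, 989, 632, 252.1 and 26.99 CPM in PS2APP libraries, against 475, 104, 1393, 717 and 969.6 CPM in non-Tg libraries. Neither group held a level, and none of 11 tested markers passed in edgeR. S100a9, a calcium-binding protein of neutrophils, ranged over 5.62 to 368 CPM in PS2APP libraries, against 34.7 to 551 CPM in non-Tg libraries, a change of -0.65 ± 0.60 on the log2 scale (edgeR adjusted p = 0.59). Monocyte markers summed to 43.1 to 188 CPM in PS2APP libraries and 95.4 to 139 CPM in non-Tg libraries, and of 7 tested Ccr2 alone was called. The monocyte sum had higher medians in the other sorts, 156 (PS2APP) and 192 CPM (non-Tg) in astrocyte libraries and 254 and 275 CPM in neuron libraries. On that scale the myeloid medians were 67.4 and 121 CPM, so this sum does not read monocytes alone. Markers of dendritic cells summed to 43.9 to 64.5 CPM in PS2APP libraries and 53.8 to 91.3 CPM in non-Tg libraries. Those of B cells summed to 2.66 to 12.7 CPM in PS2APP libraries and 5.09 to 15.9 CPM in non-Tg libraries, and those of T and NK cells to 3.04 to 14.8 CPM in PS2APP libraries and 4.13 to 12.3 CPM in non-Tg libraries. Among the lymphoid and mast cell markers Blk, Tpsb2 and Mcpt4 were at 0 in all 10 libraries. Erythroid markers summed to 1.16 to 9.55 CPM in PS2APP libraries and 3.90 to 6.69 CPM in non-Tg libraries. The dendritic, T and NK cell and erythroid sums also had higher medians in neuron than in myeloid libraries, so they do not read those lineages alone. The sums of border-associated macrophages and neutrophils were highest in the myeloid libraries. For border-associated macrophages this does not tell them from microglia, which are in the same sort. Their sum had medians of 953 CPM (PS2APP) and 934 CPM (non-Tg). Mrc1, Siglec1 and F13a1 averaged only 33.2, 14.6 and 16.2 CPM in PS2APP and 52.5, 20.3 and 24.4 CPM in non-Tg libraries. The sum thus rests mostly on other members and may not read that lineage alone. In the dendritic, B cell and T and NK cell lists 4, 1 and 1 genes were tested and none passed in edgeR. In these lists and in those of neutrophils and border-associated macrophages, 0 genes had an unadjusted p under 0.05, and DESeq2 and limma-voom called 0.

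**Figure D5:**
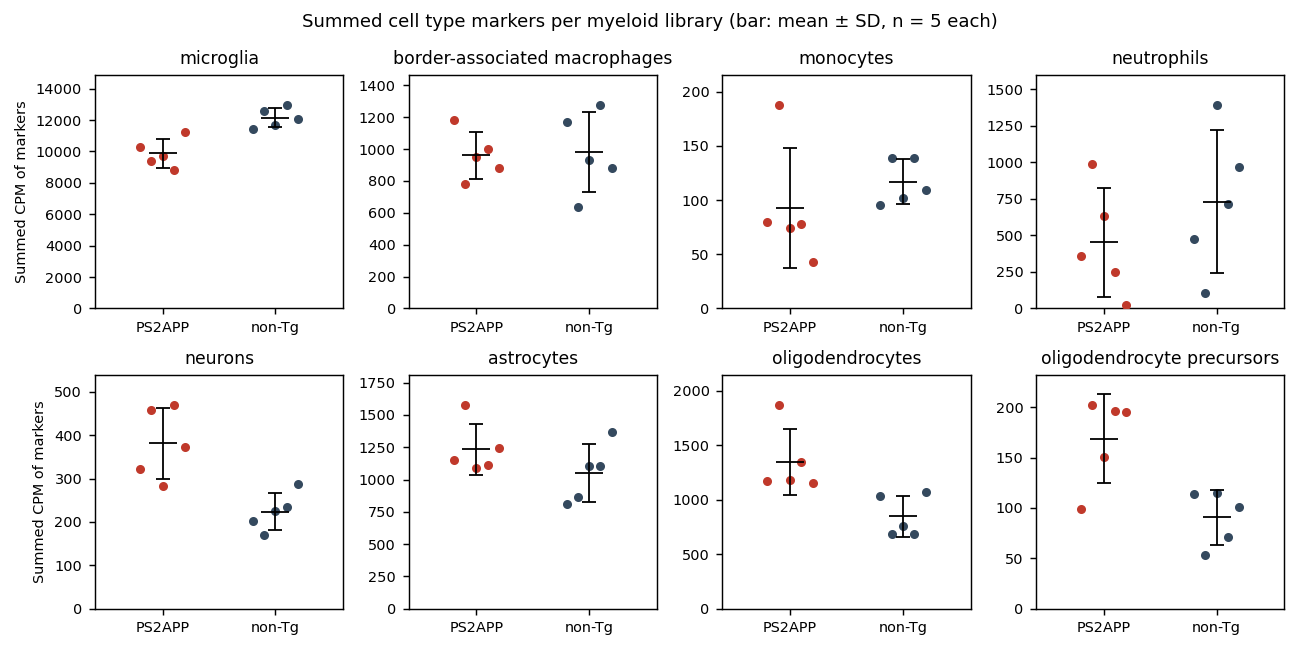
Summed CPM of cell type markers, 1 point per library, PS2APP (red, left) and non-Tg (dark blue, right), with the mean and SD of 5 libraries and axes starting at 0. Summed microglia markers are lower and summed oligodendrocyte markers, mostly Mbp and Mobp, higher in PS2APP libraries with no overlap. Neuron markers and oligodendrocyte precursor markers, the latter mostly Bcas1, overlap slightly, and neutrophil markers spread widely in both groups.

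RNA of cells that the sort should leave out was present. Oligodendrocyte markers summed to 1175, 1866, 1181, 1351 and 1151 CPM in PS2APP libraries, against 1031, 686, 761, 685 and 1072 CPM in non-Tg libraries. No PS2APP library lay within the non-Tg range. Of 7 tested members Mbp and Mobp, genes of compact myelin, rose by 0.84 ± 0.20 and 0.90 ± 0.20, while the list median was -0.03. Mbp averaged 757 CPM in PS2APP and 423 CPM in non-Tg libraries and Mobp 380 and 204 CPM, which is most of the sum. Of the 7, 3 had a positive and 4 a negative log2 fold change. Neuron markers summed to 283 to 469 CPM in PS2APP libraries and 170.3 to 288 CPM in non-Tg libraries, against medians of 2542 CPM (PS2APP) and 2426 CPM (non-Tg) in the neuron libraries, and 12 of 13 tested were positive. Oligodendrocyte precursor markers summed to 99.1 to 202 CPM in PS2APP libraries and 53.7 to 115 CPM in non-Tg libraries. Most of this sum was Bcas1, a gene of newly forming oligodendrocytes, which averaged 136 CPM in PS2APP and 67.6 CPM in non-Tg libraries. The list median was 0.17. Bcas1 rose by 1.01 ± 0.25 in 3 of 10 fits (adjusted p = 0.098 without non-Tg replicate 4), and not without PS2APP replicate 4. Mbp held in 7 of 10 fits (adjusted p = 0.091 without non-Tg replicate 4) and Mobp in 9 (adjusted p = 0.065 without non-Tg replicate 4).

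Astrocyte markers did not move together. They summed to 1089 to 1574 CPM in PS2APP libraries and 811 to 1367 CPM in non-Tg libraries, with 6 of 13 tested positive and 7 negative. Gfap, the intermediate filament of astrocytes, stood at 85.3, 176, 99.6, 87.8 and 129.7 CPM in PS2APP libraries, against 14.8, 14.3, 11.7, 21.2 and 22.3 CPM in non-Tg libraries. All 5 PS2APP libraries were above the non-Tg ones, and the change of 2.77 ± 0.25 on the log2 scale (edgeR adjusted p = 5e-07) held in all 10 fits. Gfap is among the summed markers of the covariate, so its pass in that fit carries no weight. Ndrg2 rose by 0.83 ± 0.16 in all 10 fits, while Aqp4, the water channel of astrocyte endfeet, stood at 3.09, 7.93, 5.70, 6.37 and 5.62 CPM in PS2APP libraries, against 8.38, 13.3, 21.2, 21.8 and 24.2 CPM in non-Tg libraries. It fell by 1.64 ± 0.41 on the log2 scale in 3 of 10 fits (adjusted p = 0.11 without non-Tg replicate 4), and not with GC-content offsets. Fabp7, a fatty acid-binding protein of radial glia and astrocytes that is in no list, rose by 2.31 ± 0.58 in 4 of 10 fits (adjusted p = 0.081 without non-Tg replicate 5). Mural cell markers summed to 23.2 to 48.4 CPM in PS2APP libraries and 17.5 to 41.4 CPM in non-Tg libraries, and ependymal and choroid plexus markers to 9.88 to 29.1 CPM in PS2APP libraries and 7.23 to 29.5 CPM in non-Tg libraries. In the astrocyte libraries the astrocyte markers summed to medians of 12316 CPM (PS2APP) and 17294 CPM (non-Tg).

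Of 20 glutamate receptor and postsynaptic scaffold genes 3 rose and 19 were positive (median 0.64): Camk2a and Camk2b, subunits of the calcium-dependent kinase of the synapse (0.97 ± 0.19 and 0.94 ± 0.22), and the scaffold Shank1 (0.88 ± 0.22). Camk2a stood at 409.7, 360.4, 313, 276 and 353 CPM in PS2APP libraries, against 162, 139, 165, 133 and 277 CPM in non-Tg libraries, overlapping through non-Tg replicate 5, and held in all 10 fits. It alone of the list was called without PS2APP replicate 4. Of 21 presynaptic genes 2 rose, or 0 without that library, the vesicle fusion proteins Vamp2 (0.99 ± 0.23) and Stx1a (1.93 ± 0.45), each in 7 of 10 fits. The highest p was adjusted p = 0.069 without non-Tg replicate 5 for Vamp2 and adjusted p = 0.094 without PS2APP replicate 4 for Stx1a. Camk2b held in 6 (adjusted p = 0.064 without non-Tg replicate 5) and Shank1 in 4 (adjusted p = 0.08 without non-Tg replicate 5), and Camk2b, Shank1 and Stx1a were lost with GC-content offsets. Thy1, a surface protein of neurons, stood at 60.6, 116, 64.6, 78.3 and 86.2 CPM in PS2APP libraries, against 7.15, 13.96, 27.9, 11.7 and 31.6 CPM in non-Tg libraries, without overlap, and the change of 2.14 ± 0.32 on the log2 scale (edgeR adjusted p = 0.00044) held in all 10 fits. Whether RNA of the transgene with Thy1 promoter elements was counted there was not tested. With the other-cell covariate none of Camk2a, Camk2b, Shank1, Vamp2 and Stx1a passed, but Stx1a stood at 2.16 against 1.93 without it, Shank1 at 0.76 against 0.88 and Camk2b at 0.71 against 0.94 on the log2 scale. Camk2a stood at 0.59 against 0.97 and Vamp2 at 0.69 against 0.99. Thy1, Mbp, Mobp, Ndrg2, Bcas1, Gfap, Aqp4 and Flt1 are themselves among the summed markers, so that fit says nothing of their change.

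Of 27 potassium channels and transporters 1 rose and 2 fell, or 0 and 1 without PS2APP replicate 4. Those that fell were the chloride cotransporter Slc12a2 (-0.98 ± 0.27) and the channel kinase Trpm7 (-0.75 ± 0.16). Trpm7 was lost without non-Tg replicate 4 (edgeR adjusted p = 0.057). Slc12a2 (adjusted p = 0.12 without non-Tg replicate 4) held in 3 of 10 fits. Neither passed with GC-content offsets. Of 28 cytosolic ribosomal protein genes Rpl22 was called (3.6%, against 3.36% of all genes tested), at 0.77 ± 0.21, in none of the 10 fits, and the list median was 0.36. Many genes of this family have processed copies that take uniquely aligned reads away.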

How the data were processed

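RNA-seq of sorted cells was used from the 5 PS2APP and 5 non-Tg myeloid libraries. Per the file headers, each deposited count is a whole number of uniquely aligned reads of a gene model, and each deposited RPKM was divided by length and adjusted by a library size factor. RPKM was used only for a check. GSNAP and GRCm38 are named in the submitters' processing notes; for versions and annotation the labels and headers give nothing. Of 36528 gene identifiers 31049 matched a symbol in a RefSeq table (GRCm38.p6), covering 95.3% of myeloid counts.

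Counts were filtered with filterByExpr, scaled by TMM and tested with edgeR 4.0.16 in R 4.3.3 (quasi-likelihood, Benjamini-Hochberg, adjusted p of 0.05). DESeq2 1.42.0 and limma 3.58.1 served as alternatives, with other scalings, filters, covariates and left-out libraries. Totals and shares were compared with exact permutation tests in scipy 1.17.1. The fit was tested on simulated data. There edgeR recovered 39 of 100 genes given a 2-fold change and 82 of 100 given a larger one, with 1 false call. Lists with no gene called can therefore hold changes that were missed. Each pair of myeloid libraries differed by more than counting noise, the closest having a chi-square of 10.5 times its degrees of freedom. The myeloid totals of 2015535 to 6143018 reads set the depth, and 3 counts correspond to 0.488 to 1.49 CPM; such floors cover counting error only.

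Members and gene lists were chosen with earlier results of these data known. Named were the 4 markers, the 12 largest rises and 12 largest falls called without overlap outside the disease-associated and homeostatic lists at a mean log2 CPM of at least 3, up to 3 members of smallest p per list, and 6 further genes of smallest p at a mean log2 CPM of at least 6. Other names are marked in the text as chosen after their values were seen. Some genes that enter the counts are not reported here by name. GC content was known for 89.5% of tested genes.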

Additional observations from a re-analysis of the deposited data

Results flagged for a closer look

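In each group of 5 libraries the highest and lowest values were compared with the nearest other by Dixon's ratio, with a critical value of 0.71. Of 306 groups examined 23 values stood out, and chance alone flags about 1 in 20 groups.

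PS2APP replicate 4 stood high for Lrguk (262 CPM), Arhgap17 (875 CPM), Igf1 (89.8 CPM) and Stx1a (48.4 CPM). PS2APP replicate 2 stood high for Faxc (35.4 CPM) and Mbp (1094 CPM), for the summed monocyte markers (188 CPM) and for the summed oligodendrocyte markers (1866 CPM). PS2APP replicate 5 stood high for Tlr6 (29.6 CPM), Hsph1 (216 CPM) and Tyrobp (354 CPM) and low for Itgav (41.98 CPM). PS2APP replicate 3 stood high for Gbp6 (14.1 CPM) and PS2APP replicate 1 for Havcr2 (172.0 CPM).

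Non-Tg replicate 1 stood high for Baiap2l2 (1.97 CPM), Hsph1 (108 CPM) and the share of counts of an abundant gene without a symbol in the table (3.25%), and low for Cd84 (199 CPM). Non-Tg replicate 2 stood high for Itgam (1758 CPM), Adgre1 (134 CPM) and Adgrg1 (424 CPM). Non-Tg replicate 3 stood high for Trpm1 (0.279 CPM, the others being at 0) and non-Tg replicate 5 for Camk2a (277 CPM).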

How the results depend on the processing

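None of 134 genes followed through all settings reversed its direction. Some cell type markers picked by the list rule but not followed, none of them called, did change sign. With the mitochondrial and other-cell covariates in that order, Siglec1 went from -0.48 to 0.17 and 0.19 on the log2 scale. Cdh5 went from -1.16 to 0.29 and 0.08, and Vtn from 1.04 to -0.69 and -0.31. The 412 genes called became 911 with DESeq2, 747 with limma-voom, 939 with no filter on low counts, 33 when tested against 1.5-fold, 24 with a covariate for other-cell markers, 26 with one for mitochondrial RNA, 204 with GC-content offsets, 207 with GC-content and length offsets, and 115 with GC-content offsets without PS2APP replicate 4. Of the 412, the DESeq2 calls shared 408 and the GC-offset calls 174. The 100 calls in lists became 166 with DESeq2, 18 against 1.5-fold, 17 and 15 with the other-cell and mitochondrial covariates, and 42 with GC-content offsets without PS2APP replicate 4. Leaving out 1 library gave 105 (without non-Tg replicate 4) to 652 (without non-Tg replicate 1) genes and 38 to 129 calls in lists. The difference in mitochondrial share ranged over 3.95 to 5.78 percentage points when 1 library was left out, passing without PS2APP replicate 1 (exact permutation p = 0.032) and without non-Tg replicate 3 (exact permutation p = 0.048). Rises were 55.3% of calls and 63.2% with GC-content offsets. The offsets, added after seeing the data, kept 91 of the 134 genes followed on their side of the threshold and lost 42. The cause of the other changes was not tested. Depth limits calls in genes near 3 counts, or 0.488 to 1.49 CPM. No paired analysis was run. The groups differ in genotype and are therefore different animals, and the labels give nothing else that would pair their libraries.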
